A study of Rattus norvegicus with 10 samples.

Results

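Homer1 encodes a scaffold protein of the postsynaptic density, the protein meshwork beneath excitatory synapses. Its N-terminal EVH1 domain binds group I metabotropic glutamate receptors, Shank scaffolds and inositol trisphosphate receptors, and the long protein forms join these partners through a C-terminal coiled coil. A short form, made when the transcript ends early, lacks the coiled coil and is induced by neuronal activity as an immediate early gene.

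The gene was represented by all probe sets that the platform annotation pairs with the single symbol Homer1, 6 of 8740 non-control probe sets: AB003726_at, AB007688_s_at, AB017140_at, AB017140_g_at, AF093267_s_at and AF093268_s_at. A probe set is a group of short oligonucleotides that together report a stretch of transcript, and its name holds the sequence record it stands for. The annotation gives no transcript form, so which probe sets detect short and which long transcripts is not known from the sources used here, and none is called short or long. AB017140_at and AB017140_g_at share a record and are not independent. A further probe set annotated to both Hax1 and Homer1 was left out.

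The arrays measured total RNA of 5 rat brain regions: the amygdala (AMY), the caudate putamen (CPU), the nucleus accumbens (NA), the prefrontal cortex (PFC) and the ventral tegmental area (VTA). Each region had 1 array labelled cocaine-treated and 1 labelled saline-treated, 10 in all. Cocaine blocks the reuptake of dopamine, and these regions hold dopamine neurons or receive their axons. The labels do not state strain, age, dose, duration or the number of animals behind an array. Homer1 was selected from its region levels and cocaine ratios on these same arrays, so its values are a description and carry no test.

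The deposited value of a probe set is an expression index on a linear scale, and array medians lay between 2208 and 2310. Markers were set against the tissue labels by limma, a region against the 4 others together. Higher calls (adjusted p under 0.05) went to 4 of 4 tested excitatory neuron markers in PFC, to 7 of 8 striatal projection neuron markers in CPU and 4 of 8 in NA, and to 1 of 3 dopamine neuron markers in VTA, the tyrosine hydroxylase gene Th. In AMY, 2 of 4 excitatory markers were called higher. So were the excitatory marker Nrgn in CPU and the striatal marker Penk in AMY. Of all 5232 tested probe sets, higher calls went to 70 in PFC, 91 in CPU, 24 in NA, 410 in VTA and 21 in AMY. The PFC cocaine array stood apart with 226 exact zeros, while the other arrays had 8 to 120. No Homer1 value was 0. In whole tissue, fewer cells of a type and less RNA per cell cannot be told apart.

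The RefSeq promoter table for build GRCr8 gives 1 start for Homer1. The 250 bases before it, chr2:26278762-26279011 on the plus strand, are shown here. As 1 window for the whole gene, they cannot tell its probe sets apart.

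Homer1 promoter: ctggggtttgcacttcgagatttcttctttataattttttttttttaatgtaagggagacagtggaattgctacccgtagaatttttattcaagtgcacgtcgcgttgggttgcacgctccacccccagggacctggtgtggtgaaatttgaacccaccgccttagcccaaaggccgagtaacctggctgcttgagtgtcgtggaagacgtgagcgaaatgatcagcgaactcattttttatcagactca

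Motifs of activity-regulated factors were searched on both strands. The cyclic AMP response element TGACGTCA, its shorter core TGACG, which lies within it, and the AP-1 site TGANTCA had 0 matches in this window, so no base is in capitals. These letters occur in 1.59%, 18.2% and 6.34% of 33469 rat promoter windows of the same length.

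AB003726_at was highest in PFC. Its index there was 4476 with cocaine and 5794 with saline. In CPU it was 3303 with cocaine and 2160.4 with saline, in AMY 2755 with cocaine and 2052 with saline, and in NA 2484 with cocaine and 1921 with saline. In VTA it was 1216 with cocaine and 1137 with saline. Both PFC arrays lay above every other array and both VTA arrays below, while the arrays of CPU, AMY and NA overlapped. The regions stood in the same order among the cocaine and among the saline arrays. The PFC mean was 5135 ± 932 (SD over the cocaine and the saline array, n = 2), 2.53-fold over the other 4 regions (means of log2 values). The VTA mean was 1176 ± 55.8 (SD, n = 2), 2.47-fold below the others. On the log2 scale the PFC difference was 1.34 with both arrays, 1.53 without the cocaine array and 1.16 without the saline array.

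AF093268_s_at was highest in CPU instead. Its index there was 4822 with cocaine and 4830.1 with saline. In PFC it was 3605 with cocaine and 4554 with saline, in NA 3294 with cocaine and 3356 with saline, and in AMY 3419 with cocaine and 2884 with saline. In VTA it was 1437 with cocaine and 1380.15 with saline. Both CPU arrays lay above both PFC arrays, and those above both NA arrays, while NA and AMY overlapped. The VTA arrays lay below all others. The CPU mean was 1.74-fold above and the VTA mean 2.68-fold below the other regions.

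The pair of probe sets from record AB017140 had the same leading region. On AB017140_g_at the CPU index was 5934 with cocaine and 6108 with saline. In PFC it was 4572 with cocaine and 5497 with saline, in NA 3789 with cocaine and 4115 with saline, in AMY 2925 with cocaine and 4511 with saline, and in VTA 1905 with cocaine and 1775 with saline. CPU, PFC and NA did not overlap in that order, NA and AMY did, and VTA lay below the rest. The CPU mean was 1.78-fold above and the VTA mean 2.48-fold below the other regions.

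On AB017140_at the CPU index was 4802 with cocaine and 5106 with saline, and in PFC 3320.04 with cocaine and 4775 with saline, so that the lower CPU value barely exceeded the higher PFC value. In NA it was 3052 with cocaine and 3386 with saline, in AMY 2528 with cocaine and 3391 with saline, and in VTA 1283 with cocaine and 1293 with saline. PFC, NA and AMY overlapped. The CPU mean was 1.88-fold above and the VTA mean 2.87-fold below the other regions.

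AF093267_s_at and AB007688_s_at were the dimmest, with mean indices under the filter of 1824 used for tests, which the other 4 of the 6 passed. AF093267_s_at had 1687 with cocaine and 1974 with saline in CPU, 1435 with cocaine and 1939 with saline in PFC, 1378 with cocaine and 1519 with saline in NA and 1506 with cocaine and 1314 with saline in AMY. In VTA it had 608 with cocaine and 572 with saline, below all others. On AB007688_s_at the arrays outside VTA ranged from 1162 to 1496, and the VTA arrays had 1010.3 with cocaine and 767 with saline. The 4 regions outside VTA overlapped, each with its neighbour in order, on both probe sets. These 4 VTA values were under the floor of 1028, to which lower values were raised before taking log2, so the fold by which VTA lay below is a bound. The bound was 1.53-fold on AF093267_s_at. The VTA differences of AB003726_at and AB017140_at also depended on the floor. With it at the 30th percentile they were -1.05 and -1.40 on the log2 scale, against -1.30 and -1.52.

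**Figure D1:**
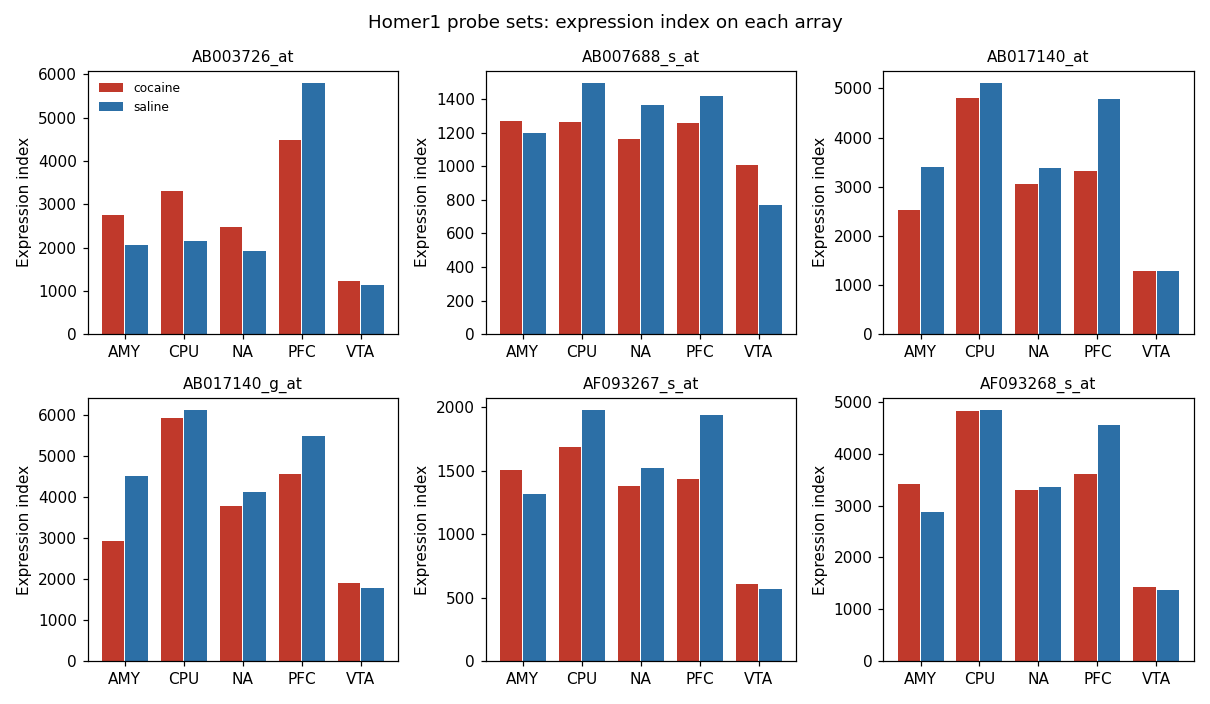
Expression index (linear, each panel with its own axis) of the 6 Homer1 probe sets on every array, with 1 cocaine bar and 1 saline bar for AMY, CPU, NA, PFC and VTA. AB003726_at peaks in PFC, at 4476 with cocaine and 5794 with saline, while AB017140_at, AB017140_g_at and AF093268_s_at peak in CPU, and all 6 are lowest in VTA.

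The ratio of PFC to CPU separated AB003726_at from the other 5. It was 1.36 on the cocaine arrays and 2.68 on the saline arrays. On the other 5 it ran from 0.691 for AB017140_at to 0.994 for AB007688_s_at among cocaine arrays, and from 0.900 for AB017140_g_at to 0.982 for AF093267_s_at among saline arrays. It was thus below 1 on those 5 in both treatments, though by under 2% on AF093267_s_at with saline and AB007688_s_at with cocaine. On the log2 scale the PFC difference from the other regions was larger on AB003726_at than on AB017140_g_at by 0.84, and the CPU difference was smaller, at -0.65.

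**Figure D2:**
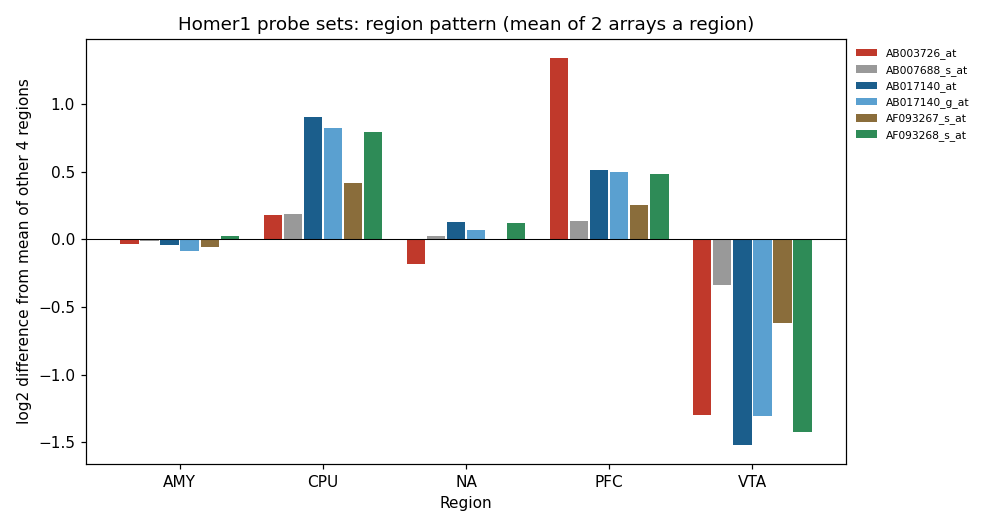
Log2 difference of each region (AMY, CPU, NA, PFC, VTA), as the mean of its cocaine and its saline array, from the mean of the other 4 regions, for the 6 Homer1 probe sets (bars). AB003726_at reaches 1.34 in PFC, where the others lie between 0.14 and 0.52, and the floor shortens the VTA bars of AF093267_s_at and AB007688_s_at.

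Markers of cell classes differed between these regions too. The summed index of the 4 tested excitatory neuron markers in PFC was 95606 with cocaine and 99625 with saline. It was 70282 with cocaine and 76039 with saline in AMY, 45993 with cocaine and 43802 with saline in CPU, 40667 with cocaine and 38059 with saline in NA, and 24638 with cocaine and 19497 with saline in VTA. The CPU sum was mostly Nrgn, at 31573 with cocaine and 31242.5 with saline, against 6768 with cocaine and 7392 with saline in VTA. The other 3, Cck, Olfm1 and Nrn1, were each lower in CPU than in NA on all arrays, and Nrn1 was lower in CPU than in VTA, so the place of CPU above NA in this sum rests on Nrgn. AMY, second in the sum, had AB003726_at levels that overlapped those of CPU and NA. The sum of 8 striatal projection neuron markers was 116771 with cocaine and 117846 with saline in CPU, against 24632 with cocaine and 23775 with saline in PFC. The sum of 5 oligodendrocyte markers was 115159 with cocaine and 99690 with saline in VTA. In CPU it was 109332 with cocaine and 118241 with saline. It was 84044 with cocaine and 85113 with saline in NA, 75098 with cocaine and 84349 with saline in AMY, and 64407 with cocaine and 71176 with saline in PFC. No marker value in these sums was 0. The part of these cell classes in the Homer1 levels was not tested.

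Over the 10 arrays AB003726_at followed the other probe sets least. Its Pearson r with the other 5 on log2 values lay between 0.639 and 0.795, while those 5 had r between 0.845 and 0.991 among themselves. Over the 8 arrays outside VTA, r was between 0.129 and 0.435 for AB003726_at and between 0.518 and 0.968 among the rest. Over the 5 saline arrays, r was 0.667 to 0.771 for AB003726_at and 0.911 to 0.997 among the rest. Over the 5 cocaine arrays these ranges overlapped, at 0.836 to 0.914 and 0.772 to 0.986, so AB003726_at did not stand apart there. The points of each r share arrays, and arrays of a region are alike, so these values describe the set. Across 748 other genes with several tested probe sets, the median r of 1216 pairs was 0.619. The 12 of these pairs that varied over the arrays at least as much as the tested Homer1 probe sets had a median r of 0.985, against 0.869 for the 6 pairs of the 4 tested Homer1 probe sets.

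With cocaine, AB003726_at was higher than with saline in CPU, AMY and NA and lower in PFC. From the index values above, the log2 ratio of the cocaine to the saline array was 0.61 in CPU, 0.43 in AMY, 0.37 in NA, 0.10 in VTA and -0.37 in PFC. Each ratio sets 1 array against 1 array and has no replicate check. In CPU this ratio lay at percentile 99.96 of the ratios of 5229 tested probe sets, and in NA at percentile 99.4 of 5232. In AMY, where ratios spread more widely, it lay at percentile 95.3, and in PFC at percentile 8.49. The gene was picked for such ratios, so the percentiles place them and support nothing.

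None of the other 5 probe sets had a CPU or NA ratio above 0. Their log2 ratios ran from -0.24 on AB007688_s_at to -0.0023 on AF093268_s_at in CPU, and from -0.23 on AB007688_s_at to -0.03 on AF093268_s_at in NA. That of AF093268_s_at in CPU turned to 0.02 under quantile normalization and 0.0087 under median scaling, and in NA to 9e-04 under median scaling, so it has no settled sign. The largest gap in the CPU ratio between tested Homer1 probe sets was 0.70, between AB003726_at and AB017140_at.

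The same striatal arrays differed in single markers of choroid plexus and meninges. In CPU, Ttr had 11221 with cocaine and 34312 with saline, Enpp2 5392 with cocaine and 8860 with saline, and Ptgds 6968 with cocaine and 9016 with saline. In NA, Ptgds had 12944 with cocaine and 28155 with saline, while Ttr had 1832 with cocaine and 1699.61 with saline and Enpp2 3625 with cocaine and 3744 with saline. The summed index of these 3 was 23581 with cocaine and 52187 with saline in CPU, 18401 with cocaine and 33599 with saline in NA, 44879 with cocaine and 56307 with saline in AMY, 26128 with cocaine and 31468 with saline in PFC, and 25720.0 with cocaine and 23918 with saline in VTA. The sum was thus lower with cocaine in every region but VTA, through different genes in CPU and NA. Single markers did not all go with the sum. Ptgds in AMY had 10310 with cocaine and 7886 with saline, and Ttr in PFC 2262 with cocaine and 1692 with saline. Ttr in VTA had 2310 with cocaine and 4431 with saline. The other markers of AMY, PFC and VTA went with the sum. None of these values was 0. Their part in the Homer1 ratios was not tested. The sum of striatal neuron markers was nearly level, at 116771 with cocaine and 117846 with saline in CPU and 78741 with cocaine and 79830.1 with saline in NA.

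In PFC all 6 probe sets were lower with cocaine, with log2 ratios between -0.52 on AB017140_at and -0.17 on AB007688_s_at. These rest on the array with 226 zeros. The median ratio of all tested probe sets in PFC was 0.01, and AB017140_at stood lowest of the Homer1 set, at percentile 2.69.

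In AMY the probe sets split. AB003726_at, AF093268_s_at, AF093267_s_at and AB007688_s_at had log2 ratios of 0.43, 0.25, 0.20 and 0.09. The pair from record AB017140 ran the other way, with -0.42 on AB017140_at and -0.62 on AB017140_g_at. The central 95% of all tested probe sets in AMY ran from -0.86 to 0.52 and held all 6. AMY was also the region whose cocaine and saline arrays were least alike, with r of 0.940 over tested probe sets, against 0.992 in CPU. In VTA every Homer1 ratio lay between -0.01 and 0.10, and those of AF093267_s_at and AB007688_s_at were 0 because both arrays were under the floor. As log2(index + 100) with no floor, AF093267_s_at had 0.08 and AB007688_s_at 0.36, at indices too low to rank.

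**Figure D3:**
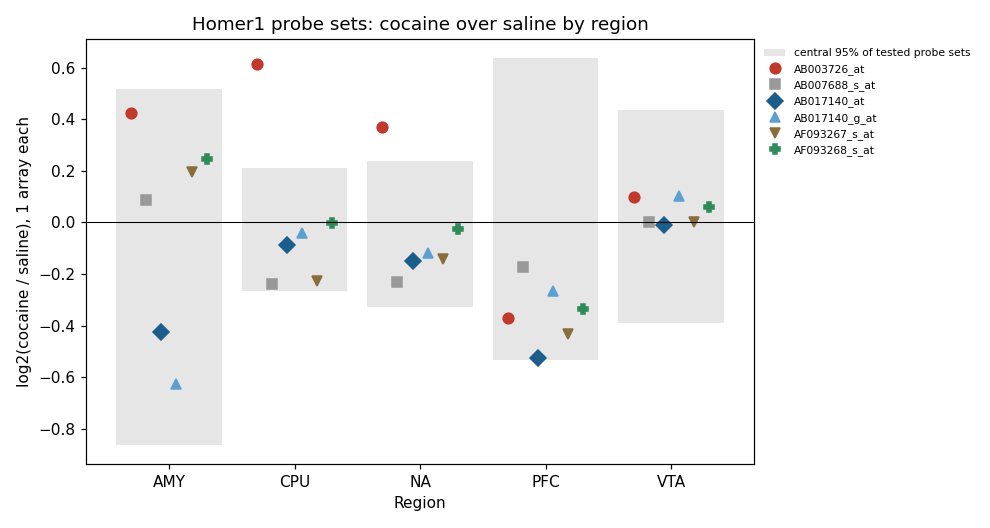
Log2 ratio of the cocaine to the saline array in AMY, CPU, NA, PFC and VTA for the 6 Homer1 probe sets (symbols), with the central 95% of all tested probe sets in grey. AB003726_at lies above the grey band in CPU, at 0.61, and in NA, at 0.37, where the other 5 lie below 0, AF093268_s_at with no settled sign between scalings.

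Averaged over the 5 regions, AB003726_at had a log2 ratio of 0.23 ± 0.38 (SD over regions, n = 5), higher in 4 regions and lower in 1. AB017140_at was lower in 5 of 5, at -0.24 ± 0.22 (SD, n = 5), and AB017140_g_at lower in 4, at -0.19 ± 0.28 (SD, n = 5). AF093267_s_at averaged -0.12 ± 0.24, AB007688_s_at -0.11 ± 0.15 and AF093268_s_at -0.01 ± 0.21 (SD, n = 5). The means of AF093267_s_at and AB007688_s_at include VTA ratios of 0 set by the floor. As plain log2 ratios with no floor these were 0.09 and 0.40, which would raise both means. AB017140_at was the one probe set whose mean exceeded, narrowly, its SD between regions.

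Genes whose products bind Homer proteins or act in the same receptor pathway were taken from a list of 32, of which 23 had a probe set with that symbol and 19 were tested. Each was tested with limma, a linear model that shares its estimate of spread between probe sets, with Benjamini-Hochberg adjustment over 5232 probe sets. In CPU 2 of the 19 were called, 1 higher and 1 lower, where 4.09% of all tested probe sets were called. Itpr1 encodes the inositol trisphosphate receptor, which releases calcium from the endoplasmic reticulum. Its index on J05510_at was 11617 with cocaine and 11066 with saline in CPU. It was 6808 with cocaine and 7225 with saline in NA, 6480.34 with cocaine and 7601 with saline in PFC, 5785 with cocaine and 5777 with saline in AMY, and 2172 with cocaine and 2334 with saline in VTA. Both CPU arrays lay above all others and both VTA arrays below. Itpr1 was 2.25-fold higher in CPU than the other regions (log2 1.17 ± 0.08 SE, limma adjusted p = 0.000258). Dlgap1, a scaffold that links PSD-95 to Shank, had 1827 with cocaine and 1731 with saline in CPU, and was 1.35-fold lower there (limma adjusted p = 0.0271).

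In VTA 4 of the 19 were called, 3 lower and 1 higher, where 11.1% of all were, 169 lower and 410 higher. Itpr1 was 3.35-fold lower (limma adjusted p = 3.43e-05). The calcium pump gene Atp2b2 on rc_AA955388_s_at had 2635 with cocaine and 2931 with saline in VTA and was 1.56-fold lower (limma adjusted p = 0.017). Its probe set J03754Complete_seq_at was also called lower (limma adjusted p = 0.0113). L05557cds_g_at and rc_AA943784_s_at had the same sign and missed the threshold (limma adjusted p = 0.057 and 0.176). Grm5, a group I metabotropic receptor, had 3118 with cocaine and 2801 with saline and was 1.31-fold lower (limma adjusted p = 0.0453). In CPU it had 4353 with cocaine and 4262 with saline, the highest mean of the regions, which missed the threshold (limma adjusted p = 0.208), and the highest single array was AMY saline, at 4535. Plcb4, a phospholipase C that acts downstream of such receptors, had 3040.29 with cocaine and 2644 with saline and was 1.35-fold higher in VTA (limma adjusted p = 0.0178).

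In PFC 2 of the 19 were called, both higher, where 5.01% of all were, 70 higher and 192 lower. Atp2b2 on rc_AA955388_s_at had 5393 with cocaine and 6576 with saline and was 1.66-fold higher (limma adjusted p = 0.02). Its probe set L05557cds_g_at was also called higher (limma adjusted p = 0.0238). J03754Complete_seq_at and rc_AA943784_s_at had the same sign and missed the threshold (limma adjusted p = 0.052 and 0.209). Dlgap1 had 2894 with cocaine and 2683 with saline and was 1.30-fold higher (limma adjusted p = 0.0438). Leaving out any 1 of the 8 arrays of CPU, NA, PFC and VTA took the PFC count to 0, and leaving out either AMY array took it to 3. In AMY and NA 0 of the 19 were called in limma, where 0.612% and 0.535% of all were. An unadjusted p under 0.05 was found for 4 of the 19 in AMY, against 462 of all 5232 tested probe sets. In NA it was found for 2 of the 19, against 274 of all 5232. The median log2 difference of the 19 was -0.01 in CPU, 0.11 in PFC and -0.04 in VTA, against -0.04, 0.0016 and 0.02 over all tested probe sets.

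The other family members and scaffolds had smaller differences and no call. Homer2 on AB007690_s_at ranged from 2548 to 2819 over the 10 arrays, and Homer3 from 1719.96 to 2472. Their log2 differences between a region and the others ran from -0.07 to 0.05 for this Homer2 probe set, from -0.14 to 0.11 for the other tested one, AB007689_at, and from -0.07 to 0.06 for Homer3. Among scaffolds that bind Homer, they ran from -0.13 to 0.07 for Shank1, from -0.09 to 0.11 for Shank2 on rc_AI071947_s_at and from -0.22 to 0.14 for Shank2 on AF060116_at. Of the 3 tested Itpr1 probe sets, J05510_at and U38812_s_at were called in both CPU and VTA. M64699_s_at had the same signs, at 0.22 and -0.27, and missed the threshold (limma adjusted p = 0.28 and 0.0976).

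Itpr1 also had the pattern most like that of 3 Homer1 probe sets, among 4048 tested probe sets of other single symbols. Over 10 arrays, AF093268_s_at had r = 0.977 with J05510_at, AB017140_g_at had r = 0.979 with U38812_s_at and AB017140_at had r = 0.977 with U38812_s_at. Over the 8 arrays outside VTA these were 0.873, 0.915 and 0.905. For AF093268_s_at the next were Zfp180 at 0.970 and 3 probe sets of the protein kinase C gene Prkcb, the highest at 0.967. For AB017140_at they were the vesicle fusion gene Cplx2 at 0.949, the calcium pump gene Atp2b1 at 0.947 and Prkcb at 0.934, and for AB017140_g_at the calmodulin gene Calm2 at 0.946, Cplx2 at 0.937 and Atp2b1 at 0.936. AF093267_s_at ran closest to Zfp180 at 0.944, the transcription factor gene Klf9 at 0.940 and the metabotropic receptor gene Grm3 at 0.934, followed by Prkcb at 0.918 and Itpr1 at 0.909. AB007688_s_at ran closest to Prkcb at 0.904, the calcineurin subunit gene Ppp3r1 at 0.886, Snn at 0.886 and Itpr1 at 0.885.

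AB003726_at had other neighbours. Over 10 arrays they were Kcnv1, a potassium channel subunit gene, with r = 0.924, Atp2b2 on J03754Complete_seq_at with 0.902, the cytokine gene Tnfsf13 with 0.899, Slc24a2, an exchanger of sodium, calcium and potassium, with 0.888, and Nr4a1, an activity-induced nuclear receptor gene, with 0.887. None of these 5 symbols was among the 5 closest of another Homer1 probe set. Kcnv1 was highest in PFC, at 3788 with cocaine and 5067 with saline, against 2477 with cocaine and 3004 with saline in CPU. It was lower with cocaine in CPU, where AB003726_at was higher.

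**Figure D4:**
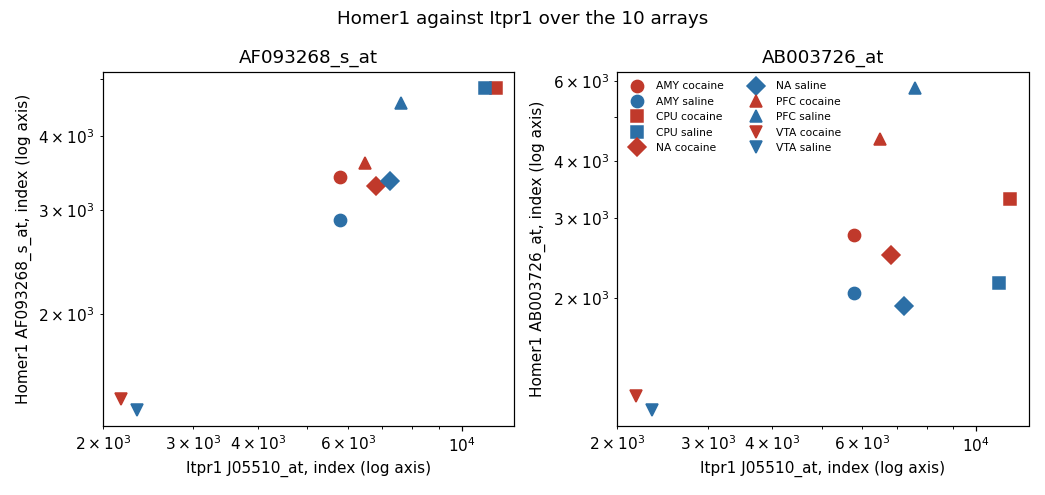
Index of 2 Homer1 probe sets against that of Itpr1 probe set J05510_at on the 10 arrays (both axes log, cocaine and saline arrays in different colours, each named by region). AF093268_s_at follows Itpr1 with r = 0.977, while AB003726_at in PFC, at 4476 with cocaine and 5794 with saline, lies above its CPU values of 3303 with cocaine and 2160.4 with saline, where Itpr1 is highest.

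Cocaine against saline across regions called 0 of 5238 probe sets in limma, which is 0% of all, with 69 at an unadjusted p under 0.05. Of the 19 partner genes 0 were called and 0 had an unadjusted p under 0.05. Their median log2 change was 0.0040, against -0.0085 over all tested probe sets. The highest were Trpc4, a cation channel gene, at 0.11 ± 0.09 (SE), and Grm5 at 0.05 ± 0.08. The lowest were Plcb1, a phospholipase C gene, at -0.16 ± 0.19 and Cdc42, a small GTPase gene, at -0.12 ± 0.13. Homer2 had 0.03 ± 0.06 and Homer3 -0.02 ± 0.12 (SE).

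Genes induced by neuronal activity, as the short Homer1 form is known to be, were taken from a list of 30 with 19 tested. In limma 0 were called for cocaine against saline and 0 had an unadjusted p under 0.05. Of the 19, 14 lay above 0, against 10 of the 19 partner genes. Their median log2 change was 0.03, against -0.0085 over all tested probe sets. The genes share arrays, and this count was not tested. Nor was the share of all tested probe sets above 0 counted. Single genes of both lists had opposite ratios in AMY and PFC. The activity-induced gene Klf10 had log2 ratios of -0.36 in AMY and 0.80 in PFC, and the partner gene Plcb3 had -0.465 and 0.37. In CPU, where AB003726_at had a log2 ratio of 0.61, the cytoskeletal gene Arc had 0.05 and the transcription factor genes Egr1, Fos, Junb and Nr4a1 had 0.03, 0.09, -0.11 and 0.08. In AMY, where AB003726_at had 0.43, Arc had 0.08 and Egr1, Fos, Junb and Nr4a1 had 0.65, -0.29, -0.08 and -0.06. In NA, where AB003726_at had 0.37, Arc had -0.04 and these 4 had 0.0021, -0.20, 0.003 and 0.05. In PFC, where AB003726_at had -0.37, Arc had 0.16 and Egr1, Fos, Junb and Nr4a1 had -0.99, 0.20, 0.41 and 0.11. These Egr1 values are of AF023087_s_at only. Across regions Egr1 had -0.09 ± 0.19 (SE) on AF023087_s_at, and its 4 tested probe sets ran from -0.11 to 0.09.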

How the data were processed

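The members and lists were chosen with earlier results of these data known. Per the labels, the authors computed each value as the expression index of dChip, a linear intensity per probe set. The labels give no dChip version, model or scaling. Of the deposited intensity table, 59 control probe sets were left out. The platform annotation gave 1 symbol for 7006 probe sets, several for 308 and none for 1426.

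Exact zeros, 593 in all, were given no value. Indices under the 20th percentile of values above 0, which is 1028, were raised to it before log2. For tests, 5244 probe sets were kept, the 60% with the highest mean index. limma 3.58.1 in R 4.3.3 was run with an intensity trend and a Benjamini-Hochberg threshold of 0.05. One fit set every region against the other 4 together, adjusting for treatment, and another set cocaine against saline with region as a block (4 residual degrees of freedom). Both were tested on simulated data. A gene stood for its tested probe set with the highest mean and a value on all 10 arrays. Named genes were every Homer1 probe set and its 5 most correlated probe sets, up to 4 called partner genes a region, Homer2, Homer3, Grm5 and the Shank genes, the 2 highest and 2 lowest partner genes across regions, and Arc, Egr1, Fos, Junb and Nr4a1. The labels do not say that arrays hold separate animals, so p-values measure the spread between these arrays, which may be technical, and their number limits the precision. Alternatives were other floors, scalings, filters, zeros at the floor, no trend, and arrays left out.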

Additional observations from a re-analysis of the deposited data

Results flagged for a closer look

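On 5 of the 6 Homer1 probe sets the cocaine ratio ran one way in one region and the opposite way in another. Each side rests on 1 cocaine and 1 saline array, and the difference was not tested. The share of all tested probe sets that did so was not counted. Other genes had both signs too, such as Shank1, with 0.25 in the ventral tegmental area and -0.23 in the amygdala. Fos had 0.23 and -0.29 in the same regions. On AB003726_at the log2 ratio of cocaine to saline was 0.61 in the caudate putamen and -0.37 in the prefrontal cortex. On AB017140_g_at it was 0.10 in the ventral tegmental area and -0.62 in the amygdala. On AB007688_s_at it was 0.0877 in the amygdala and -0.24 in the caudate putamen, and the amygdala ratio became 0 with the floor at the 30th percentile. AF093267_s_at had 0.20 in the amygdala and -0.43 in the prefrontal cortex, and AF093268_s_at had 0.25 and -0.34 in the same regions.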

How the results depend on the processing

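The prefrontal difference of AB003726_at kept its sign and stayed within 1 SD of its region's arrays under the 6 alternatives of floor, scaling and zeros, and ranged from 1.16 to 1.53 when 1 array was left out. Its caudate cocaine ratio ranged from 0.59 to 0.62 under them. Its prefrontal difference relative to AB017140_g_at ranged from 0.71 to 0.97 when 1 array was left out. Of 180 recomputed region differences 27 moved by more than 1 SD and 8 changed sign or became 0. The SD is that of the 2 log2 values of a region. It was 0 for AF093267_s_at and AB007688_s_at in VTA, with both arrays at the floor. It was 0.0084 for AB017140_at in VTA and 0.0016 for AF093268_s_at in CPU. These values had 5, 4, 4 and 4 of the 27 moves. With 1 array left out, 48 of 300 region differences moved and 24 changed sign, as did 12 and 7 of 50 differences between AB003726_at and AB017140_g_at. Each of the values just named with a small SD moved in 8 of its 10 recomputations. Leaving out 1 of a region's own 2 arrays cannot move its difference by more than 1 SD. The counts of moves thus depend on the size of the SD. Of 180 recomputed cocaine ratios 4 moved by more than the SD over regions and 11 became 0, left 0 or changed sign. Partner genes called in the prefrontal cortex numbered 1 with zeros raised to the floor and 0 with no filter on low values, which left 1 in the caudate putamen. Counting all tested probe sets of the list gave 7 in the ventral tegmental area. When 1 array was left out, the calls ranged from 0 to 2 in the amygdala, 1 to 3 in the caudate putamen, 0 to 3 in the prefrontal cortex and 1 to 5 in the ventral tegmental area, and stayed at 0 in the nucleus accumbens. The amygdala count of 2 came without its saline array. The cause of these moves was not tested. Over all probe sets, leaving out 1 array gave 0 to 381 calls in the amygdala, 22 to 503 in the caudate putamen, 3 to 71 in the nucleus accumbens, 54 to 644 in the prefrontal cortex and 118 to 946 in the ventral tegmental area, and the other settings 3 to 32, 128 to 216, 10 to 30, 74 to 261 and 350 to 586. Cocaine against saline called 0 under every setting, also with no replicate block (region left out of the model) and with the 2 arrays of any region left out. The arrays of a region were paired through that block, since the labels give no other pairing.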
